A study of Rattus norvegicus with 8 samples.

Results

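The genes described here encode subunits of potassium and calcium channels, and were taken as every gene whose symbol began with Kcn or Cacn in the complete table of array signals. There were 103 of them among 13915 named genes, 79 for potassium channels and 24 for calcium channels, each with 1 probe set. The arrays came from primary cultures of granulosa cells (GCs) of 24-day-old female Sprague-Dawley rats, all given testosterone. PKA-CQR arrays (n = 3) were of GCs transduced for 24 hr. with a lentivirus for a mutant catalytic subunit of protein kinase A (PKA) that is always active and does not need cAMP. FSH arrays (n = 3) were of GCs given a control lentivirus for enhanced green fluorescent protein (EGFP) and 100 ng/ml of human follicle stimulating hormone (FSH) for 24 hr. EGFP arrays (n = 2) were of GCs given the EGFP virus alone, so every culture carried a virus, and the PKA-CQR cultures carried a different one from the other cultures. The comparison of the stimuli asks whether active PKA alone changes the genes that FSH changes.

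Potassium channels let potassium leave the cell and hold the membrane at a negative voltage, and voltage-gated calcium channels admit calcium when that voltage rises. The pore of each channel is built by one family of genes, and accessory subunits set how fast, at what voltage and how often the pore opens. GCs are electrically coupled, hormone-producing cells of the ovarian follicle. FSH acts on them through cAMP and PKA, a kinase that phosphorylates channels directly as well as the transcription factor CREB.

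Signals are on the log2 scale, after the RMA normalization by the authors, and a difference of 1 is a 2-fold change. The array medians over all probe sets other than controls lay between 7.13 and 7.15, and a gene was called bright when its mean over the 8 arrays was above their mean, 7.14. By this rule 22 of the 103 channel genes were bright (21.4%), against 63.9% of all named genes, and 81 were dim. Of the bright genes, 17 were for potassium and 5 for calcium channels, and 17 of the 22 were above the median on each of the 8 arrays. Nearest to the line inside were *Kcnk6* (7.19) and *Kcnj14* (7.24), and outside *Kcnj13* (7.09) and *Cacna1i* (7.07). Probe sets differ in how well they bind, so a higher signal for one gene than for another does not show more of its RNA, and a dim gene may be expressed at a level its probes do not read. The share of bright genes differed by class. It was 6 of 34 voltage-gated potassium pore subunits, 3 of 11 of their accessory subunits, 3 of 8 calcium- and sodium-activated potassium channel genes, 4 of 11 tandem-pore potassium channels and 1 of 15 inward rectifiers. Among calcium channel genes it was 1 of 10 pore subunits, both alpha2delta subunits, 2 of 4 beta subunits and none of the 8 gamma subunits.

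**Figure D1:**
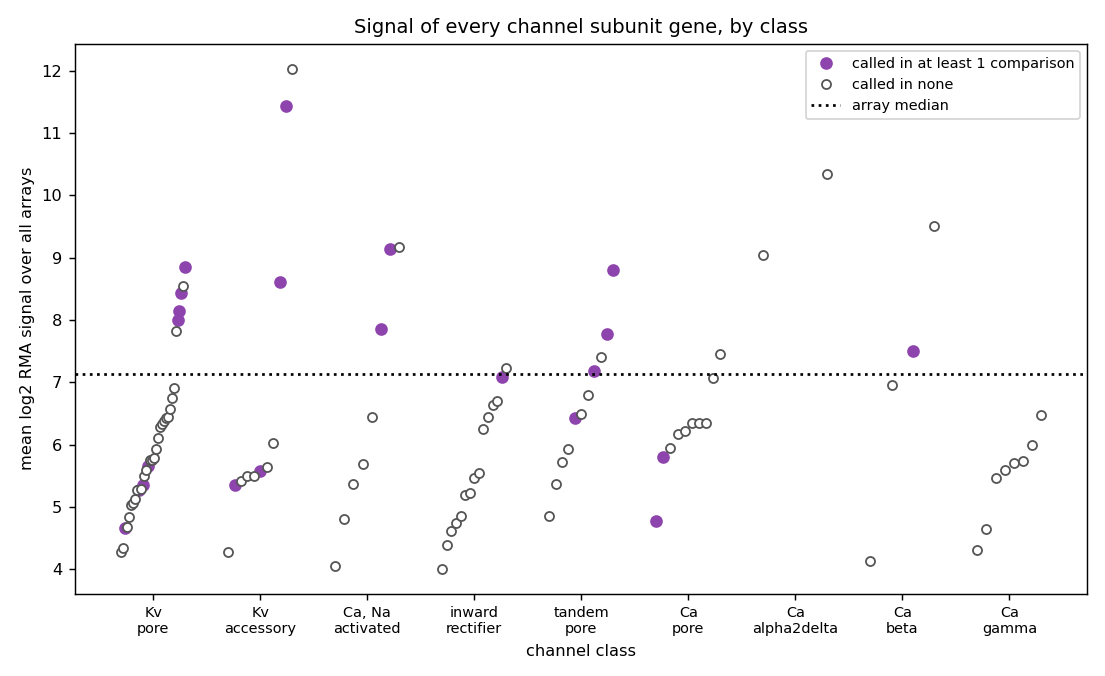
Mean log2 RMA signal over the 8 arrays of each of the 103 channel subunit genes (points), by class of channel. Filled points passed the test in at least 1 of the 3 comparisons, and the dotted line at 7.14 is the array median, above which 22 of the genes lie.

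A small set of potassium channel genes changed strongly, and of the 24 calcium channel genes 1 was called with PKA-CQR and 3 with FSH. FSH up-regulated *Kcnq1* 8.98-fold, *Kcne4* 4.14-fold, *Kcnq5* 3.32-fold, *Kcnt1* 3.12-fold and *Kcng2* 3.08-fold, and down-regulated *Kcnk6* 4.10-fold and *Kcnk2* 4.01-fold. The fitted changes with PKA-CQR had the same signs and were smaller for all of these but *Kcne4*, and that of *Kcnq5* was not called. With a Benjamini-Hochberg adjusted p under 0.05 in limma over all named genes as the rule for a call, PKA-CQR raised 7 and lowered 5 of the 103 channel genes against EGFP (11.7%). Of all named genes 12.5% were called, 6.48% raised and 6.02% lowered. FSH raised 12 and lowered 9 of the channel genes (20.4%), against 25.5% of all named genes, 13.4% raised and 12.1% lowered. PKA-CQR arrays were above FSH arrays for 4 channel genes and below them for 6 (9.71%), against 6.91% of all named genes, 3.95% above and 2.96% below. Without any test, the arrays of PKA-CQR and EGFP did not overlap for 33 of the 103 genes, those of FSH and EGFP for 50 and those of PKA-CQR and FSH for 24, where 40.6%, 49.2% and 22.8% of all named genes did not overlap. The share of channel genes called was thus close to or below that of the whole array in both comparisons with EGFP and above it between the stimuli, differences that were not tested. The count of 5 genes lowered by PKA-CQR dropped to between 1 and 3 when EGFP replicate 1 or 2, FSH replicate 1 or 2, or PKA-CQR replicate 1 or 2 was left out. The count of 6 genes with less signal in PKA-CQR than in FSH arrays dropped to 2 or 3 without FSH replicate 2 or any 1 of the PKA-CQR replicates.

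Bright and dim genes were also counted apart. Among the 22 bright genes, PKA-CQR raised 6 and lowered 3, against 16.5% of all bright named genes called, 8.79% raised and 7.69% lowered. FSH raised 7 and lowered 5 of them, against 33.1% called, 17.4% raised and 15.6% lowered. PKA-CQR arrays were above FSH arrays for 4 and below for 5, against 9.09% called, 5.32% above and 3.77% below. The median size of the change in the bright genes, whatever its sign, was 0.42 log2 with PKA-CQR and 0.58 with FSH, against 0.14 and 0.21 over all bright named genes. Among the 81 dim genes 3 were called with PKA-CQR, 9 with FSH and 1 between the stimuli, against 5.45%, 12.1% and 3.06% of all dim named genes. Brightness was set by the same arrays as the changes, so a gene could pass through the groups where it was high. *Kcnq1* and *Kcnt1* averaged 6.84 and 6.91 in EGFP arrays, below the median. *Kcnk2* and *Kcnk6* averaged 6.72 and 6.32 in FSH arrays. No test was made of whether the bright channel genes differ from other bright genes.

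The comparisons with EGFP share its 2 arrays, so the values of both stimuli are given side by side. The labels call the arrays biological replicates, and the methods describe separate collections of GCs, which were not further identified. Within a group the arrays correlated at 0.993 to 0.997 over the named genes. The 9 of 10 granulosa markers on the array were all bright, and their summed linear signal was 68373 to 72983 in PKA-CQR arrays, 61756 to 71976 in FSH arrays and 44318 to 48436 in EGFP arrays. PKA-CQR raised 5 and FSH 6 of them, and each lowered 0. *Inha* and *Inhbb*, which the paper lists as raised by both stimuli, rose 1.27 to 1.77 log2. *Foxl2*, *Amh* and *Gja1* changed by -0.03 to 0.30 log2 against EGFP and were not called. *Cyp19a1*, the aromatase gene and a known FSH target, averaged 11.64 in PKA-CQR arrays, 10.54 in FSH arrays and 5.56 in EGFP arrays. The 10 smooth muscle and pericyte markers, of which *Cnn1*, *Des*, *Lmod1*, *Rgs5* and *Pdgfrb* were dim, summed to 3841 to 4662 in PKA-CQR arrays, 2243 to 2253 in FSH arrays and 9254 to 16223 in EGFP arrays. The 10 theca and stroma markers, of which *Cyp17a1* and *Insl3* and 5 others were dim, summed to 2820 to 3497 in PKA-CQR arrays, 1485 to 1629 in FSH arrays and 4958 to 6554 in EGFP arrays. The 10 macrophage and leukocyte markers, 8 of them dim, summed to 3126 to 3570 in PKA-CQR arrays, 2486 to 2789 in FSH arrays and 3616 to 3617 in EGFP arrays. *Cd14*, the brightest of that list, averaged 11.30 in PKA-CQR arrays, 10.61 in FSH arrays and 11.49 in EGFP arrays, and was lowered by FSH. The dim *Cd68* was raised by FSH (log2 0.69), and PKA-CQR raised 0 and lowered 0 of the list against EGFP. The 10 neuron and neuroendocrine markers, 7 of them dim, summed to 3055 to 3915 in PKA-CQR arrays, 3281 to 3856 in FSH arrays and 2626 to 2689 in EGFP arrays. Of these PKA-CQR raised 2 and lowered 1, and FSH raised 3 and lowered 1, with *Snap25* and *Nefm* raised by both, and their part in the rises of channel genes was not tested. Sums overlapped EGFP in both stimuli for the 7 endothelial markers and the 5 oocyte markers on the array, of which 1 each was bright. FSH lowered the dim endothelial *Kdr* (log2 -0.59, adjusted p = 0.00702) and the bright oocyte *Zp2* (log2 -0.61, adjusted p = 0.000955) in limma. PKA-CQR arrays were above FSH arrays for both, and no other gene of these lists was called against EGFP. The 1 erythroid marker, *Alas2*, was dim and raised by FSH. For mixed cultures, fewer cells of a type and less RNA per cell cannot be told apart.

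**Figure D2:**
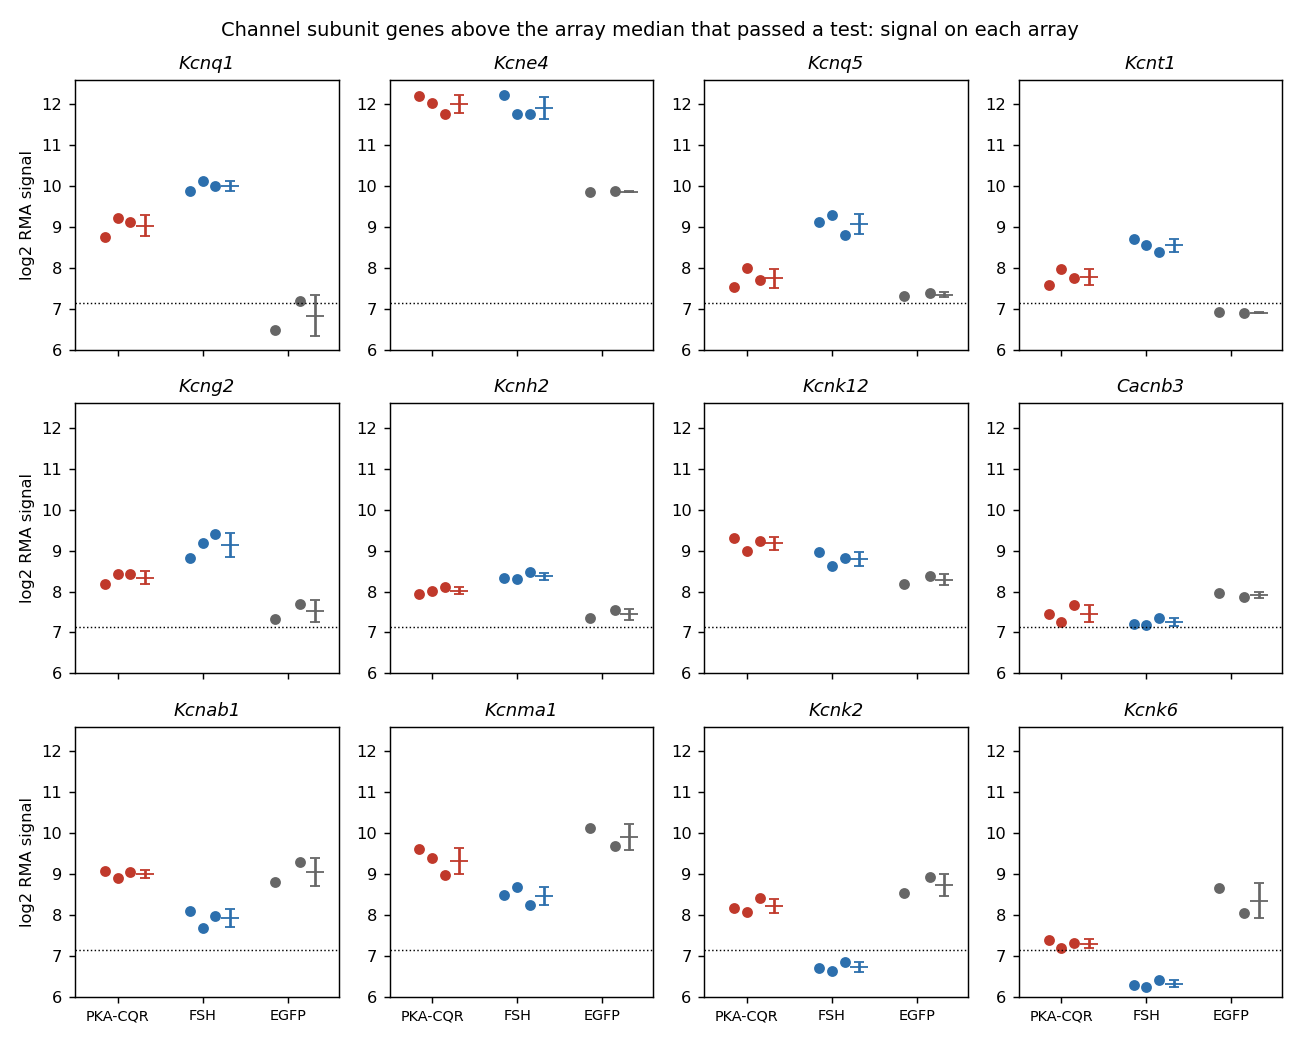
Log2 RMA signal (vertical axis) of the 12 bright channel genes that passed the test in at least 1 comparison, on each array of the PKA-CQR, FSH and EGFP groups (points), with the group mean and SD beside them. The dotted line is the array median at 7.14, below which *Kcnk2* and *Kcnk6* lie in the FSH arrays, *Kcnq1* in EGFP replicate 1 and *Kcnt1* in both EGFP arrays.

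*Kcnq1* encodes the pore of a voltage-gated channel that carries the slow repolarizing current of the heart and potassium recycling in epithelia. Its log2 signal was 8.75, 9.22 and 9.13 in PKA-CQR arrays, 9.88, 10.13 and 10.01 in FSH arrays and 6.48 and 7.20 in EGFP arrays. The 3 groups did not overlap, with FSH highest, and EGFP replicate 1 lay below the array median. The rise was 4.58-fold with PKA-CQR (log2 2.20, SE 0.21, adjusted p = 0.000381) and 8.98-fold with FSH (log2 3.17, SE 0.21, adjusted p = 1.64e-05). PKA-CQR arrays were 1.96-fold below FSH arrays (log2 -0.97, SE 0.19, adjusted p = 0.0183), a call that was lost without FSH replicate 2 or PKA-CQR replicate 1 or 3 (adjusted p = 0.0508 to 0.0772). 

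*Kcnq5* is a second pore gene of the same family, whose channels carry a slow current that stays open near the resting voltage. It gave 7.55, 8.0 and 7.71 in PKA-CQR arrays, 9.13, 9.31 and 8.82 in FSH arrays and 7.31 and 7.39 in EGFP arrays. All FSH arrays lay above all the others. The rise was 3.32-fold with FSH (log2 1.73, SE 0.16, adjusted p = 9.85e-05). PKA-CQR arrays were 2.52-fold below FSH arrays (log2 -1.34, SE 0.14, adjusted p = 0.0013). PKA-CQR over EGFP was 1.32-fold (log2 0.40, SE 0.16, adjusted p = 0.170), and it passed the threshold when the replicate number was a block in the fit (adjusted p = 0.0440), but not with EGFP replicate 2 placed with the replicate 3 arrays (adjusted p = 0.141) or with the number as a random block (adjusted p = 0.0910). The related *Kcnq3* (6.34) was dim and changed by -0.09 log2 with PKA-CQR and -0.08 log2 with FSH against EGFP, with no call.

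Subunits of the Kcne family are small membrane proteins that bind pores such as that of *Kcnq1*. *Kcne4*, whose product inhibits that pore in expression systems, gave 12.21, 12.03 and 11.76 in PKA-CQR arrays, 12.23, 11.76 and 11.76 in FSH arrays and 9.86 and 9.88 in EGFP arrays. The arrays of both stimuli overlapped each other and lay well above EGFP. It rose 4.38-fold with PKA-CQR (log2 2.13, SE 0.17, adjusted p = 0.000141) and 4.14-fold with FSH (log2 2.05, SE 0.17, adjusted p = 4.56e-05), and these calls held in all 18 alternative limma fits. The difference between the stimuli was 0.08 log2 (SE 0.15, adjusted p = 0.854). *Kcne2*, whose product keeps that pore open at rest in expression systems, had the highest mean of the 103 (12.03), from a probe set whose name marks probes shared with other transcripts. It gave 12.56, 12.49 and 12.55 in PKA-CQR arrays, 12.29, 11.09 and 11.90 in FSH arrays and 11.57 and 11.79 in EGFP arrays. PKA-CQR arrays lay above all others and FSH arrays spread widely around EGFP, with FSH replicate 2 the lowest array. PKA-CQR over EGFP was 1.80-fold (log2 0.85, SE 0.28) and was not called (adjusted p = 0.0955), but it passed without FSH replicate 2 (adjusted p = 0.00543). *Kcne1*, whose product forms the slow cardiac current with *Kcnq1*, was dim and was lower with PKA-CQR than with FSH (log2 -0.39, SE 0.09, adjusted p = 0.0350). That call was lost without any 1 of the FSH replicates or PKA-CQR replicate 2 or 3 (adjusted p = 0.0516 to 0.128). *Kcne3* was dim (5.65) and was not called.

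Of the other bright voltage-gated pore genes, *Kcng2* and *Kcnh2* rose with both stimuli and more with FSH. *Kcng2* encodes a subunit that is silent alone and modifies the channels of the Kcnb family. Its signal was 8.17, 8.43 and 8.43 in PKA-CQR arrays, 8.82, 9.19 and 9.41 in FSH arrays and 7.33 and 7.71 in EGFP arrays, with no overlap between groups. FSH over EGFP was 3.08-fold (log2 1.62, SE 0.18, adjusted p = 0.000257). PKA-CQR over EGFP was 1.77-fold (log2 0.82, SE 0.18, adjusted p = 0.0187), a call lost without EGFP replicate 1 or PKA-CQR replicate 2 or 3 (adjusted p = 0.0620 to 0.158). The 1.74-fold lower signal with PKA-CQR than with FSH (adjusted p = 0.0222) was lost without FSH replicate 2 or any 1 of the PKA-CQR replicates (adjusted p = 0.0554 to 0.0976). Its known partner *Kcnb2* (5.30) was dim and was not called, with changes of -0.13 log2 for PKA-CQR over EGFP and for FSH over EGFP.

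*Kcnh2* encodes the hERG channel, which speeds the end of the cardiac action potential and is the target of many arrhythmia-causing drugs. It gave 7.94, 8.02 and 8.10 in PKA-CQR arrays, 8.34, 8.30 and 8.47 in FSH arrays and 7.35 and 7.54 in EGFP arrays. These small differences stood clear of the spread in each group. The rise was 1.49-fold with PKA-CQR (log2 0.58, SE 0.09, adjusted p = 0.00437) and 1.90-fold with FSH (log2 0.93, SE 0.09, adjusted p = 0.000144). The 1.27-fold lower signal with PKA-CQR than with FSH (log2 -0.35, SE 0.08, adjusted p = 0.0429) was lost when any 1 PKA-CQR or FSH array was left out (adjusted p = 0.0747 to 0.164). The related *Kcnh3* (8.54) was bright and not called, with changes of -0.13 to 0.15 log2 over the 3 comparisons.

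*Kcnab1* encodes a cytoplasmic beta subunit that speeds inactivation of the Kcna pores. Its log2 signal was 9.07, 8.89 and 9.04 in PKA-CQR arrays, 8.10, 7.69 and 7.98 in FSH arrays and 8.81 and 9.29 in EGFP arrays. PKA-CQR arrays lay within the range of EGFP, and every FSH array lay below both. FSH lowered it 2.18-fold (log2 -1.13, SE 0.16, adjusted p = 0.00108), and PKA-CQR arrays were 2.11-fold above FSH arrays (log2 1.08, SE 0.14, adjusted p = 0.00313). Both calls held in all 18 alternative limma fits. PKA-CQR over EGFP was -0.05 log2 (SE 0.16, adjusted p = 0.913). All 6 Kcna pore genes on the array were dim, and of them only *Kcna4* was called.

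The promoters of *Kcne4*, *Kcnq5*, *Kcnt1* and *Kcnab1* are shown because they are those of bright, called channel genes that hold the core of the cAMP response element bound by CREB, TGACG read on either strand (CGTCA on the other). Windows run from 250 bases before to 50 after the start of transcription, from RefSeq on GRCr8, 5′ to 3′ on the strand of the gene, and the core is in capitals.
*Kcne4* (chr9:87695798-87696097, plus strand): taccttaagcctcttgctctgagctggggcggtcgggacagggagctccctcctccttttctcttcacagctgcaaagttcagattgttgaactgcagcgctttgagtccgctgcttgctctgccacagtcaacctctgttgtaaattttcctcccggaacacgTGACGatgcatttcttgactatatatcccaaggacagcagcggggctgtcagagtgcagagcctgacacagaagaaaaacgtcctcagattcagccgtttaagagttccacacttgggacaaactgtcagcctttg
*Kcnq5* (chr9:31891232-31891531, minus strand): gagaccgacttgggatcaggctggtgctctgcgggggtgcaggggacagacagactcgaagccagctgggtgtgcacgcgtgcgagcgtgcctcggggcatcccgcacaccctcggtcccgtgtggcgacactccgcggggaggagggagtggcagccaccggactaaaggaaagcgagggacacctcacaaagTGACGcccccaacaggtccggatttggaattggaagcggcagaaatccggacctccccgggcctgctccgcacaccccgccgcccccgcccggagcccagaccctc
*Kcnt1* (chr3:29081089-29081388, plus strand): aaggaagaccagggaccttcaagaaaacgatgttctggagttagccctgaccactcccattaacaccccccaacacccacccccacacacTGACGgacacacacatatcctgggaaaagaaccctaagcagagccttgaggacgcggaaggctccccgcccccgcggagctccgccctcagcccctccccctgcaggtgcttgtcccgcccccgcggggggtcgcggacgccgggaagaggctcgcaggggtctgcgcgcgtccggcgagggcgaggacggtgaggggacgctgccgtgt
*Kcnab1* (chr2:151614301-151614600, plus strand): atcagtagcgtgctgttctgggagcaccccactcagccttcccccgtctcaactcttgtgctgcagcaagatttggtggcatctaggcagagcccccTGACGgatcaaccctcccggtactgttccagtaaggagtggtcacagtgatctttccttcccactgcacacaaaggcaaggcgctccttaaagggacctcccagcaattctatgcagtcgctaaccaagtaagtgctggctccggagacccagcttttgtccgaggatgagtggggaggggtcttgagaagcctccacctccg
The core was in 4 of the 10 windows found for 8 of the 12 bright, called genes, and in 18 of 78 windows of all channel genes found (23.1%), against 21.2% of the 33469 windows in the table. The other window found for *Kcnt1*, at another start, did not hold the core and is not shown. The longer palindromic element was in 1.83% of all windows and in none of the 78. Of the 4 genes shown, *Kcne4* and *Kcnt1* rose with both stimuli, *Kcnq5* was called with FSH and *Kcnab1* was lowered by FSH. A match of these letters is a description and not a binding site.

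Of the 8 genes of channels opened by calcium or sodium inside the cell, 2 were called in any comparison, *Kcnt1* and *Kcnma1*. PKA-CQR called 1 of the 8 (12.5%) and FSH 2 (25%), near the 12.5% and 25.5% of all named genes. Between the stimuli 2 were called (25%), against 6.91%. *Kcnt1*, a sodium-activated channel, gave 7.60, 7.98 and 7.76 in PKA-CQR arrays, 8.72, 8.56 and 8.39 in FSH arrays and 6.92 and 6.91 in EGFP arrays. Both EGFP arrays lay below the array median, and the groups did not overlap. It rose 1.82-fold with PKA-CQR (log2 0.86, SE 0.13, adjusted p = 0.00293) and 3.12-fold with FSH (log2 1.64, SE 0.13, adjusted p = 3.47e-05). PKA-CQR arrays were 1.72-fold below FSH arrays (log2 -0.78, SE 0.11, adjusted p = 0.00476), and all 3 calls held in the 18 alternative limma fits. *Kcnma1* encodes the pore of the BK channel, which opens with calcium and voltage and is abundant in smooth muscle. Its signal was 9.61, 9.38 and 8.97 in PKA-CQR arrays, 8.49, 8.68 and 8.23 in FSH arrays and 10.13 and 9.68 in EGFP arrays. FSH arrays were the lowest and PKA-CQR arrays lay between. FSH lowered it 2.71-fold (log2 -1.44, SE 0.21, adjusted p = 0.00124). PKA-CQR over EGFP was 1.5-fold lower and not called (log2 -0.59, SE 0.21, adjusted p = 0.120), but was called in a fit with culture as a block in which EGFP replicate 2 was placed with the replicate 3 arrays (adjusted p = 0.00588). This difference was not called with the replicate number as a block (adjusted p = 0.0944) or as a random block (adjusted p = 0.0945). PKA-CQR arrays were 1.81-fold above FSH arrays (adjusted p = 0.0319), a call lost without any 1 of the FSH replicates or PKA-CQR replicate 1 or 2 (adjusted p = 0.0517 to 0.122). *Kcnmb4*, the bright accessory subunit of the same channel, stayed between 9.11 and 9.32 on the 8 arrays and was not called. The smooth muscle accessory subunit *Kcnmb1* was dim (4.81), with changes of -0.08 to 0.09 log2 and no call.

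Tandem-pore channels carry the background potassium current that sets the resting voltage. PKA-CQR and FSH each called 4 of the 11 (36.4%), against 12.5% and 25.5% of all named genes, a difference that was not tested. Of the 4 bright ones, *Kcnk2*, *Kcnk6* and *Kcnk12* were called with each stimulus. *Kcnk2* encodes a channel opened by stretch and by arachidonic acid and closed by PKA phosphorylation. Its log2 signal was 8.18, 8.07 and 8.41 in PKA-CQR arrays, 6.71, 6.62 and 6.85 in FSH arrays and 8.54 and 8.92 in EGFP arrays. FSH arrays stood apart, below the array median. FSH lowered it 4.01-fold (log2 -2.0, SE 0.14, adjusted p = 2.11e-05), and PKA-CQR arrays were 2.81-fold above FSH arrays (log2 1.49, SE 0.13, adjusted p = 0.000457). The 1.42-fold lower signal with PKA-CQR than with EGFP (log2 -0.51, SE 0.14, adjusted p = 0.0481) was lost without EGFP replicate 2, FSH replicate 1 or 2, or PKA-CQR replicate 1 or 2 (adjusted p = 0.0675 to 0.267). *Kcnk6*, a weak inwardly rectifying member of the family, gave 7.40, 7.18 and 7.30 in PKA-CQR arrays, 6.29, 6.25 and 6.41 in FSH arrays and 8.65 and 8.05 in EGFP arrays, again with FSH arrays below the median and no overlap. It fell 2.08-fold with PKA-CQR (log2 -1.06, SE 0.16, adjusted p = 0.00333) and 4.10-fold with FSH (log2 -2.04, SE 0.16, adjusted p = 3.80e-05). PKA-CQR arrays were 1.97-fold above FSH arrays (log2 0.98, SE 0.14, adjusted p = 0.00478). The 3 calls of *Kcnk6* held in all 18 alternative limma fits.

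*Kcnk12*, a tandem-pore subunit that gives little or no current alone, moved the other way. Its signal was 9.31, 9.0 and 9.23 in PKA-CQR arrays, 8.95, 8.62 and 8.82 in FSH arrays and 8.19 and 8.38 in EGFP arrays. PKA-CQR arrays were the highest. It rose 1.86-fold with PKA-CQR (log2 0.89, SE 0.13, adjusted p = 0.00254) and 1.43-fold with FSH (log2 0.51, SE 0.13, adjusted p = 0.0188), and FSH was not called without EGFP replicate 1 (adjusted p = 0.137). The difference between the stimuli was 0.38 log2 (SE 0.11, adjusted p = 0.0998), and it passed with culture as a block and EGFP replicate 2 placed with the replicate 3 arrays (adjusted p = 0.0217). That difference also passed with array weights (adjusted p = 0.0140), but not with the replicate number as a block (adjusted p = 0.0892) or a random block (adjusted p = 0.0637). *Kcnk3*, an acid-sensitive channel, gave 7.33, 7.34 and 7.27 in PKA-CQR arrays, 7.43, 7.64 and 7.71 in FSH arrays and 7.35 and 7.26 in EGFP arrays, and FSH over EGFP was not called (log2 0.28, SE 0.09, adjusted p = 0.0559). It passed without FSH replicate 1 (adjusted p = 0.0150), as did PKA-CQR over FSH (log2 -0.36, adjusted p = 0.0335). FSH over EGFP also passed with the replicate number as a random block, array weights, a second quantile normalization or dim probe sets left out (adjusted p = 0.0236 to 0.0472). *Kcnk5*, another acid-sensitive channel, was dim and rose 1.37-fold with PKA-CQR (adjusted p = 0.0137) and 1.42-fold with FSH (adjusted p = 0.00417). Its PKA-CQR call was lost without EGFP replicate 1 or PKA-CQR replicate 3 (adjusted p = 0.0508 to 0.121).

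The channel genes that FSH lowered most, *Kcnk6*, *Kcnk2*, *Kcnma1* and *Kcnab1*, had their lowest signals in the FSH arrays, where the summed signals of the smooth muscle and of the theca and stroma markers were also lowest. PKA-CQR lowered 4 of the 10 smooth muscle markers and FSH 5, and *Tagln* averaged 11.28 in PKA-CQR arrays, 9.32 in FSH arrays and 13.17 in EGFP arrays. *Des*, *Rgs5* and *Pdgfrb* of that list changed by 0.01 to 0.10 log2 against EGFP with either stimulus and were not called. Of the theca and stroma markers PKA-CQR lowered 2 and FSH 4, and *Dcn*, *Col3a1* and *Mfap5*, genes of the stromal matrix, carried the lower sum. The theca gene *Cyp17a1* was dim and higher with both stimuli, averaging 5.93 in PKA-CQR arrays, 6.07 in FSH arrays and 5.14 in EGFP arrays, and *Insl3*, *Ptch1* and *Gli1* were not called. The part of these markers in the falls of the channel genes was not tested.

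**Figure D3:**
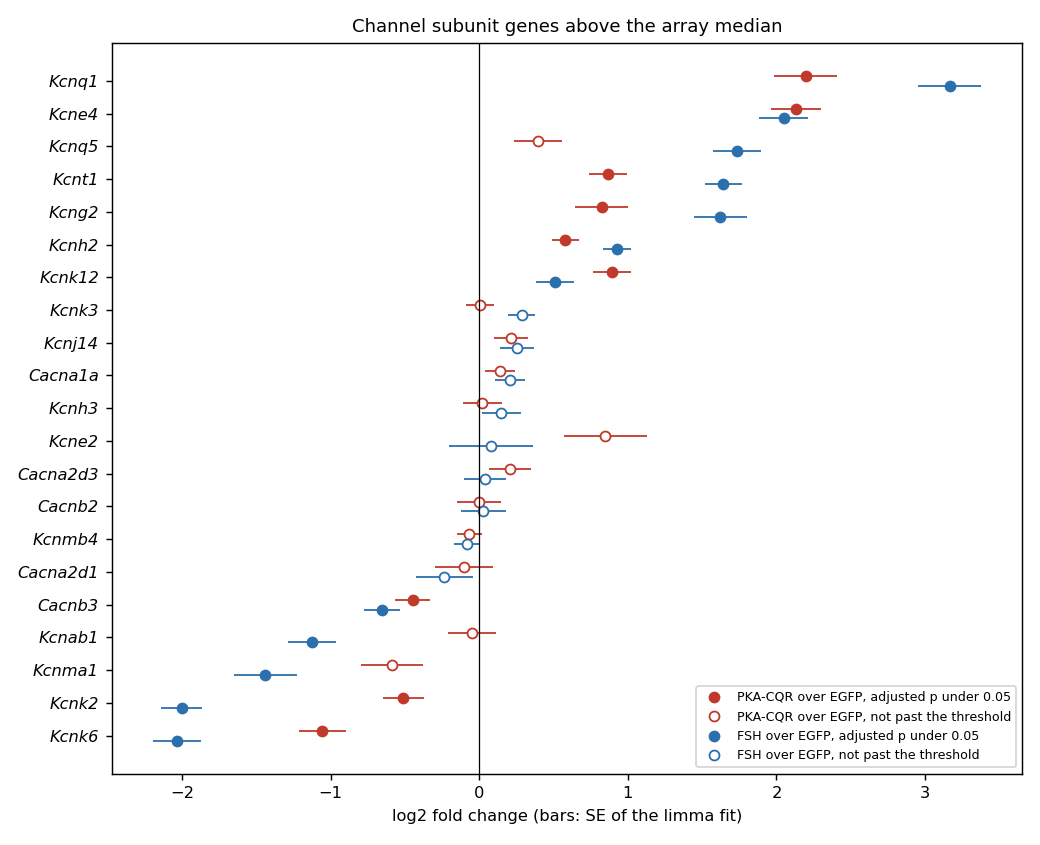
Log2 fold change of 21 of the 22 bright channel genes (rows) with PKA-CQR and with FSH against EGFP, with the SE of the limma fit, filled where the adjusted p was under 0.05. The genes run from *Kcnq1* (log2 3.17 with FSH) to *Kcnk6* (log2 -2.04 with FSH), and both stimuli are set against the same 2 EGFP arrays.

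Inward rectifiers pass potassium more easily into the cell than out of it and include the pores of the ATP-sensitive channel. The only bright one, *Kcnj14*, lay between 6.92 and 7.41 on the 8 arrays and was not called. The dim *Kcnj13*, a channel of transporting epithelia, gave 7.0, 7.05 and 6.88 in PKA-CQR arrays, 7.30, 7.42 and 7.18 in FSH arrays and 6.91 and 6.94 in EGFP arrays. Every FSH array lay above the others and above the array median. FSH raised it 1.30-fold (log2 0.38, SE 0.09, adjusted p = 0.0160), a call lost without EGFP replicate 1 or 2 or FSH replicate 2 (adjusted p = 0.0531 to 0.0902). PKA-CQR arrays were 0.32 log2 below FSH arrays (adjusted p = 0.0508), which passed with the replicate block (adjusted p = 0.0186). The ATP-sensitive pores *Kcnj8* (5.22) and *Kcnj11* (5.47) were dim and not called, with changes of -0.14 to 0.23 log2 over the 3 comparisons.

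*Cacnb3*, a beta subunit that brings calcium pores to the membrane, was the only bright calcium channel gene called. It gave 7.46, 7.26 and 7.66 in PKA-CQR arrays, 7.21, 7.19 and 7.36 in FSH arrays and 7.96 and 7.86 in EGFP arrays. EGFP was highest, and the arrays of the stimuli overlapped. FSH lowered it 1.57-fold (log2 -0.65, SE 0.12, adjusted p = 0.00409), which held in all 18 alternative limma fits. PKA-CQR lowered it 1.36-fold (log2 -0.45, SE 0.12, adjusted p = 0.0430), which was lost without either EGFP array, FSH replicate 1 or 2, or PKA-CQR replicate 1 or 2 (adjusted p = 0.0603 to 0.231). The other beta subunit, *Cacnb2*, was among the 5 genes of highest signal. It gave 9.46, 9.69 and 9.33 in PKA-CQR arrays, 9.53, 9.69 and 9.35 in FSH arrays and 9.68 and 9.32 in EGFP arrays, with changes of -0.03 to 0.03 log2 (SE 0.14 to 0.15). The groups overlapped fully.

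The alpha2delta subunits, which help calcium pores reach the surface, were bright and uncalled. *Cacna2d3* gave 10.56, 10.41 and 10.42 in PKA-CQR arrays, 10.49, 10.02 and 10.38 in FSH arrays and 10.13 and 10.39 in EGFP arrays. *Cacna2d1*, the gene for the binding site of gabapentin, lay between 8.56 and 9.31 on the 8 arrays. *Cacna1a*, the pore of the P/Q-type channel of nerve endings, was the 1 bright calcium pore and lay between 7.25 and 7.65. Of the dim pores, *Cacna1c*, the L-type channel of heart and smooth muscle, gave 5.82, 5.82 and 6.09 in PKA-CQR arrays, 5.43, 5.44 and 5.82 in FSH arrays and 5.98 and 6.07 in EGFP arrays. FSH lowered it 1.38-fold (adjusted p = 0.0378), a call lost without either EGFP array, FSH replicate 1 or 2, or PKA-CQR replicate 1 or 2 (adjusted p = 0.0536 to 0.162). *Cacna1s*, the L-type channel of skeletal muscle, was 1.20-fold higher with FSH (adjusted p = 0.0434). This call was lost in 11 of 17 alternative limma fits. It was lost without either EGFP array, FSH replicate 2 or 3, or PKA-CQR replicate 1 or 3 (adjusted p = 0.0532 to 0.212), and with the replicate block (adjusted p = 0.0738). A second quantile normalization, arrays shifted to 1 median, every non-control probe set and only the 2 groups compared also lost it. It held with EGFP replicate 2 placed with the replicate 3 arrays (adjusted p = 0.0230). The low-voltage pores *Cacna1g*, *Cacna1h* and *Cacna1i* (6.36, 5.95 and 7.07) were dim and not called.

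Dim probe sets were read apart, since near background a fold change on the log2 scale is compressed and may mix other transcripts. Beside those already named, 5 dim voltage-gated genes were called, and none of them reached the array median on any array. *Kcnh1*, an ether-a-go-go pore, gave 5.28, 5.22 and 5.27 in PKA-CQR arrays, 5.24, 5.70 and 5.86 in FSH arrays and 4.80 and 4.84 in EGFP arrays, a rise of 1.72-fold with FSH (adjusted p = 0.00666). *Kcnab3*, a beta subunit, rose 1.48-fold with FSH (adjusted p = 0.00236). Both of these FSH calls held in every alternative limma fit that tested them. The rapidly inactivating pore *Kcna4* gave 5.41, 5.46 and 5.89 in PKA-CQR arrays, 5.13, 5.17 and 5.70 in FSH arrays and 6.28 and 6.20 in EGFP arrays. FSH lowered it 1.87-fold (adjusted p = 0.00891, and 0.0630 without EGFP replicate 1). PKA-CQR over EGFP was 1.57-fold lower (adjusted p = 0.0634) and passed with the replicate block (adjusted p = 0.00103). *Kcnd3*, a pore of the transient outward current, fell 1.57-fold with PKA-CQR (adjusted p = 0.0309) and 1.62-fold with FSH (adjusted p = 0.0132). The PKA-CQR call was lost without EGFP replicate 1 or 2 or PKA-CQR replicate 1 or 3 (adjusted p = 0.0786 to 0.192), and the FSH call without EGFP replicate 1 (adjusted p = 0.0945). *Kcnc2*, a fast-opening pore of neurons, fell 1.62-fold with PKA-CQR (adjusted p = 0.0364) and 1.86-fold with FSH (adjusted p = 0.00647). Its PKA-CQR call was lost without EGFP replicate 2, FSH replicate 1 or 2, or any 1 of the PKA-CQR replicates (adjusted p = 0.0520 to 0.140).

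The 71 dim genes called in no comparison changed by -0.21 to 0.27 log2 with PKA-CQR and -0.42 to 0.37 with FSH against EGFP. They were 24 voltage-gated pores (among them *Kcna1*, *Kcna2*, *Kcna3*, *Kcna5*, *Kcna6*, *Kcnb2*, *Kcnc1*, *Kcnc4*, *Kcnd1*, *Kcnd2*, *Kcng3*, *Kcnh4* to *Kcnh8*, *Kcnq3*, *Kcns1* to *Kcns3*, *Kcnv1* and *Kcnv2*) and 6 of their accessory genes (*Kcnab2*, *Kcne3* and *Kcnip1* to *Kcnip4*). There were also 5 genes of the calcium-activated channels (*Kcnmb1* and *Kcnn1* to *Kcnn4*) and 6 tandem-pore genes (*Kcnk1*, *Kcnk4*, *Kcnk9*, *Kcnk10*, *Kcnk13* and *Kcnk15*). A further 13 were inward rectifiers (*Kcnj1* to *Kcnj6*, *Kcnj8* to *Kcnj12*, *Kcnj15* and *Kcnj16*). Calcium channels gave 7 pores (*Cacna1b* and *Cacna1d* to *Cacna1i*), the beta subunits *Cacnb1* and *Cacnb4*, and the 8 gamma subunits (*Cacng1* to *Cacng8*). Voltage-gated pores among the dim genes had means of 4.27 to 6.91, inward rectifiers 4.01 to 7.09 and gamma subunits 4.31 to 6.47. The probe set labelled *Kcnj3* is given to *Herc1* by the platform annotation, which named the other 97 it held as the table does and held no entry for 5.

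Other genes that move calcium and potassium were counted from a list of 90, of which 79 were on the array and 33 were bright. PKA-CQR raised 4 and lowered 12 of the 79 (20.3% called), against 6.48% raised and 6.02% lowered of all named genes. FSH raised 8 and lowered 14 (27.8%), against 13.4% and 12.1%, a total near the 25.5% of all named genes called. PKA-CQR arrays were above FSH arrays for 6 and below for 4 (12.7%), against 3.95% and 2.96%. None of these differences in share was tested. *Abcc9*, the sulfonylurea receptor that surrounds the ATP-sensitive pores, averaged 7.63 in PKA-CQR arrays, 8.74 in FSH arrays and 6.26 in EGFP arrays. It rose 2.58-fold with PKA-CQR (adjusted p = 0.00155) and 5.59-fold with FSH (adjusted p = 2.28e-05), and PKA-CQR arrays were 2.17-fold below FSH arrays (adjusted p = 0.00422). Its pores *Kcnj8* and *Kcnj11* were dim and uncalled, as given above. *Atp1b1*, a beta subunit of the sodium-potassium pump, rose 2.06-fold with FSH (adjusted p = 0.00282), and PKA-CQR over EGFP was 1.44-fold and not called (adjusted p = 0.0993). *Gem*, whose product binds beta subunits and reduces calcium channel current, rose 1.72-fold with PKA-CQR and 1.98-fold with FSH (adjusted p = 0.0178 and 0.00302). Its PKA-CQR call was lost without EGFP replicate 2 or PKA-CQR replicate 1 or 2 (adjusted p up to 0.120).

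Several exchangers and calcium release channels were lower with the stimuli. The sodium-calcium exchanger *Slc8a1* fell 1.95-fold with PKA-CQR (adjusted p = 0.00202) and 3.04-fold with FSH (adjusted p = 4.67e-05). *Slc24a3*, an exchanger that also carries potassium, fell 1.81-fold with PKA-CQR (adjusted p = 0.0251, and up to 0.196 without EGFP replicate 1 or PKA-CQR replicate 1 or 2) and 2.83-fold with FSH (adjusted p = 0.000734). The sodium-potassium-chloride cotransporter *Slc12a2* fell 1.72-fold with PKA-CQR (adjusted p = 0.000533) and 2.36-fold with FSH (adjusted p = 1.42e-05), and PKA-CQR arrays were 1.37-fold above FSH arrays (adjusted p = 0.00671). The release channel *Itpr1* fell 1.36-fold with PKA-CQR (adjusted p = 0.0188, and up to 0.0966 without either EGFP array or PKA-CQR replicate 1 or 2) and 2.33-fold with FSH (adjusted p = 3.86e-05). PKA-CQR arrays were 1.72-fold above FSH arrays for *Itpr1* (adjusted p = 0.00137). *Trpc2*, the channel of pheromone-sensing neurons in rodents, rose 1.48-fold with PKA-CQR (adjusted p = 0.0135, and up to 0.111 without EGFP replicate 1 or PKA-CQR replicate 2) and 1.5-fold with FSH (adjusted p = 0.00616, and 0.0548 without EGFP replicate 1). Some genes of the list that were dim by their mean over the 8 arrays were also called. Of these, *Akap5*, *Ryr2* and *Fxyd6* averaged 8.24, 7.99 and 7.44 in EGFP arrays, above the array median. *Trpc1*, *Trpc4*, *Rrad* and *Cnga1* averaged below it there. *Akap5*, which anchors PKA beside channels, fell 3.45-fold with PKA-CQR (adjusted p = 0.0117, and 0.104 without EGFP replicate 1) and 5.87-fold with FSH (adjusted p = 0.000904). *Ryr2*, the release channel of heart muscle, fell 3.32-fold with FSH (adjusted p = 0.000128), and PKA-CQR arrays were 2.22-fold above FSH arrays (adjusted p = 0.00296). The dim *Trpc1*, *Trpc4*, *Fxyd6* and *Rrad* fell 1.36- to 1.79-fold with PKA-CQR and 1.56- to 2.25-fold with FSH, all called. The PKA-CQR call of *Rrad* was lost without EGFP replicate 1 (adjusted p = 0.0951). Those of *Trpc1* and *Trpc4* were lost without EGFP replicate 1, FSH replicate 2 or any 1 of the PKA-CQR replicates, that of *Trpc1* also without EGFP replicate 2 and that of *Trpc4* also without FSH replicate 1 (adjusted p up to 0.176). *Cnga1*, a cyclic nucleotide-gated pore, rose 1.92-fold with FSH (adjusted p = 0.000502), and PKA-CQR arrays were 1.70-fold below FSH arrays (adjusted p = 0.00358).

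**Figure D4:**
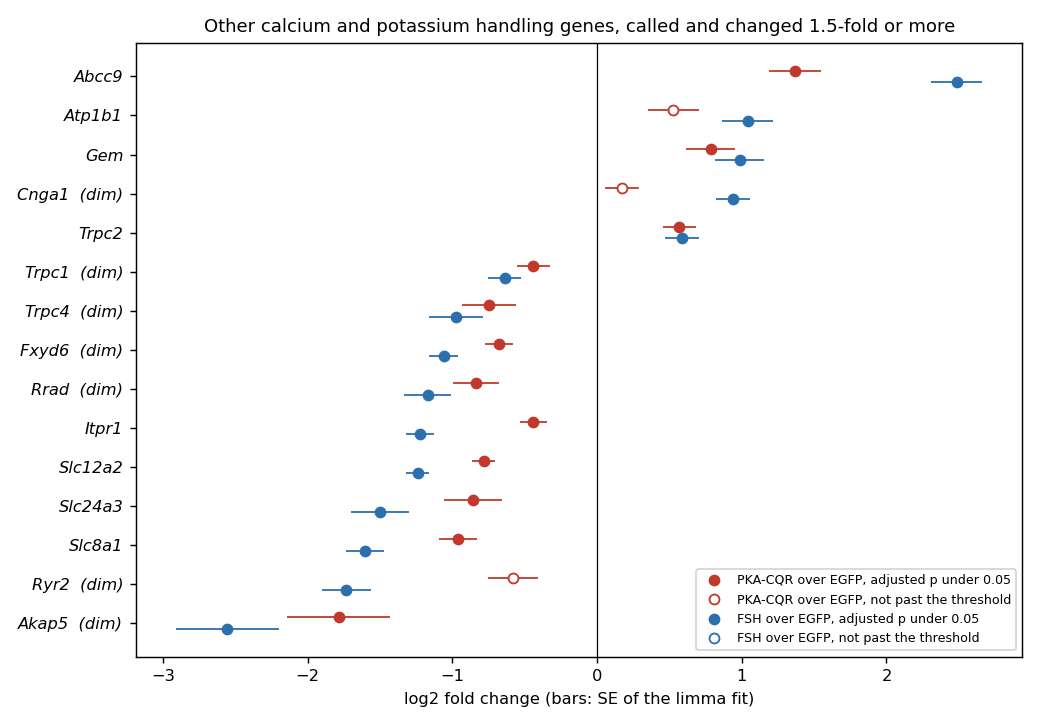
Log2 fold change with PKA-CQR and with FSH against EGFP, with the SE of the limma fit, of genes of the wider list called with a change of 1.5-fold or more in either comparison. Rows run from *Abcc9* (log2 2.48 with FSH) down to *Akap5* (log2 -2.55 with FSH), filled where the adjusted p was under 0.05.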

How the data were processed

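Total RNA of 8 GC cultures was hybridised to Affymetrix rat expression arrays. The deposited values are log2 signals from RMA, run by the authors, which corrects background, quantile normalizes over arrays and summarises the probes of a set. The series text and the submitters' processing notes name RMA, the methods name MAS5.0, and the version and chip definition are not given in the sources used here. Quantile normalization removes any change common to all genes, and probe sets near background compress fold changes. Of 31099 probe sets, 57 were controls and 17128 had no symbol.

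Groups came from the sample titles. From the deposited signals, limma 3.58.1 in R 4.3.3 (lmFit, eBayes) was fitted over all 8 arrays and 13915 named genes, with Benjamini-Hochberg adjusted p-values over all of them and calls under 0.05. The spread is shared over groups because EGFP had 2 arrays. The fit was tested on simulated data. Precision is set by the number of arrays, 8 in all. The members and lists were chosen with earlier results of these data known. Named were every called member, with the signal on every array for bright members changed 1.5-fold or more, the 5 members of highest mean, and genes of the wider list called with a change of 1.5-fold or more. Fits were repeated with other normalizations, filters, variance models, sample sets and each array left out. Per-sample columns of no sample here numbered 0. Some genes of both lists entered the fits and counts but are not reported here by name.

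The methods describe 3 collections of GCs. Same-numbered PKA-CQR and FSH arrays deviated from their group means together (r = 0.23, 0.44 and 0.62). The correlation of PKA-CQR and FSH arrays of different numbers was not computed, so these values do not settle whether the numbers pair them. The deviations of the 2 EGFP arrays from their mean are mirror images, so a correlation of either is that of the other with the sign reversed. EGFP replicate 1 correlated with PKA-CQR and FSH replicate 1 at 0.13 and 0.42, and EGFP replicate 2 at -0.13 and -0.42. EGFP replicate 2 correlated negatively with PKA-CQR and FSH replicate 2 (-0.32 and -0.27), with which EGFP replicate 1 thus correlated positively. With PKA-CQR and FSH replicate 3, EGFP replicate 2 correlated positively (0.41 and 0.52). Its array code stands between those of PKA-CQR replicate 2 and FSH replicate 3. The paper, however, gives its 2 controls to groups 1 and 2, and used their average for group 3. By that account EGFP replicate 2 belongs with the replicate 2 arrays, if group numbers are replicate numbers. The correlations and the array code do not settle its culture, and both pairings were run.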

Additional observations from a re-analysis of the deposited data

How the results depend on the processing

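No named result changed direction past the threshold in any of the fits run. Of the 30 calls of bright channel genes 22 held in all alternative limma fits, of the 13 of dim ones 4, and 27 of the 38 of genes of the wider list that were called with a change of 1.5-fold or more against EGFP. The other calls of that list were not recomputed. With 1 array left out in turn, channel genes raised by PKA-CQR numbered 5 to 9 and lowered 1 to 6, raised by FSH 9 to 13 and lowered 7 to 9, and for PKA-CQR over FSH 3 to 5 higher and 2 to 6 lower. In the replicate block fit the counts were 8 higher and 6 lower with PKA-CQR, 12 and 9 with FSH, and 5 and 7 for PKA-CQR over FSH. Beside *Kcnq5*, *Kcna4*, *Kcnj13* and *Cacna1s*, given above, the block added *Kcnj9* with FSH (adjusted p = 0.0432) and *Cacna1c* for PKA-CQR over FSH (adjusted p = 0.0179), and it changed no other call of a channel gene. In the wider list it added *Ryr2* with PKA-CQR (adjusted p = 0.00520) and *Slc24a3* for PKA-CQR over FSH (adjusted p = 0.00273). With EGFP replicate 2 placed in culture 3 of the block, PKA-CQR arrays were above FSH arrays for 7, and *Kcne2* was called over EGFP (adjusted p = 0.0228) and over FSH (adjusted p = 0.0497). With array weights PKA-CQR arrays were above FSH arrays for 8 and below for 10. With dim probe sets left out, 22 members were tested, and 3 were lowered by PKA-CQR and 5 by FSH. PKA-CQR lowered 3 when every non-control probe set was tested, and 3 when only the arrays of these groups were fitted. Why the block, the weights and the choice of probe sets or arrays shifted these counts was not tested. The methods' t-test called, after Benjamini-Hochberg, 0 higher and 0 lower with PKA-CQR, 5 and 1 with FSH, and 2 and 0 for PKA-CQR over FSH. At the methods' unadjusted threshold of 0.001 it called 1 and 0 with PKA-CQR, 1 and 0 with FSH, and 2 and 0 for PKA-CQR over FSH. Limma gave 19 members with PKA-CQR, 31 with FSH and 21 for PKA-CQR over FSH at an unadjusted p under 0.05. Taken over named probe sets (8.42), the array median left 12 bright members. Other probe sets of the same symbols could not be tried, since the annotation names 1 a symbol here. No depth can be given for arrays, and signal near background limits the 81 dim genes.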
